A study of Mus musculus with 6 samples.

Results

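A set of 33 genes for cholesterol synthesis, uptake, efflux and sterol sensing was examined in mouse CD8+ T cells, which recognise and destroy infected or tumour cells. The members were a fixed list of symbols, and all 33 were found among the 29370 genes of the count matrix. The palmitate group held 3 libraries from wild-type cells given palmitate, a saturated fatty acid, at 100 µM for 48 h, and the control group held 3 libraries from wild-type cells without it. Cells of both groups came from mouse pancreas, spleen and lymph nodes and were kept in T cell medium. The sources used here do not give the strain, sex and age of the mice, the vehicle of the control medium, or whether libraries came from separate animals or cultures. A p-value therefore speaks of the spread among these 6 libraries alone, part of which may be technical.

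Animal cells keep membrane cholesterol within narrow limits through a pair of opposed transcription programs. When sterol in the endoplasmic reticulum is low, the escort protein SCAP carries the precursors of the SREBP transcription factors to the Golgi, where they are cut and released to switch on genes of cholesterol synthesis and uptake, while INSIG proteins hold them back when sterol is plentiful. When oxidised sterols accumulate, the nuclear receptors LXR switch on genes that export cholesterol and limit its uptake. In T cells, cell division after activation calls on cholesterol synthesis, and LXR is known to restrain it. The 33 members were read as an SREBP arm of 25 genes (19 enzymes of synthesis, and Srebf1, Srebf2, Scap, Insig1, Insig2 and Stard4), an LXR arm of 5 genes (Nr1h2, Nr1h3, Abca1, Abcg1 and Mylip), and 3 genes of lysosomal exit and esterification (Npc1, Npc2 and Soat1).

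Gene counts summed to 16724588 to 24777611 in the palmitate libraries and to 26042768 to 29362276 in the control libraries. Of 12068 genes that passed the filter on low counts, 2759 (22.9%) differed between the groups at a Benjamini-Hochberg adjusted p under 0.05 in edgeR's quasi-likelihood test, 1343 (11.1%) higher and 1416 (11.7%) lower with palmitate. Upper-quartile scaling moved that split to 1651 higher and 1052 lower. A fit with the replicate number as a block called 3993 genes (33.1%), 16.5% higher and 16.6% lower. Levels below are CPM, counts scaled to a common library total with TMM factors, listed for libraries 1, 2 and 3, and each log2 fold change, palmitate over control, carries its standard error (SE). Transcripts of CD8 T cells were present in each library, Cd8a at 545.4, 475.6 and 525.6 CPM with palmitate and 378.4, 249.9 and 316.0 CPM in control, while Cd4 stayed at or below 0.565 CPM.

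The clearest change lay in the LXR arm, where palmitate-treated cells held more RNA of 4 of 5 genes, Abca1, Abcg1, Mylip and Nr1h2. This count stands against 11.1% of all tested genes called higher. The SREBP arm moved far less, with 1 gene higher (Srebf1) and 3 lower (Sqle, Nsdhl and Stard4) of 25, the 3 lower ones being a share near the 11.7% of all tested genes. The median log2 fold change was 0.90 in the LXR arm and −0.16 in the SREBP arm, a difference of 1.05, beside a median of 0.02 over all tested genes. In bulk RNA, fewer cells of a type and less RNA per cell cannot be told apart.

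**Figure D1:**
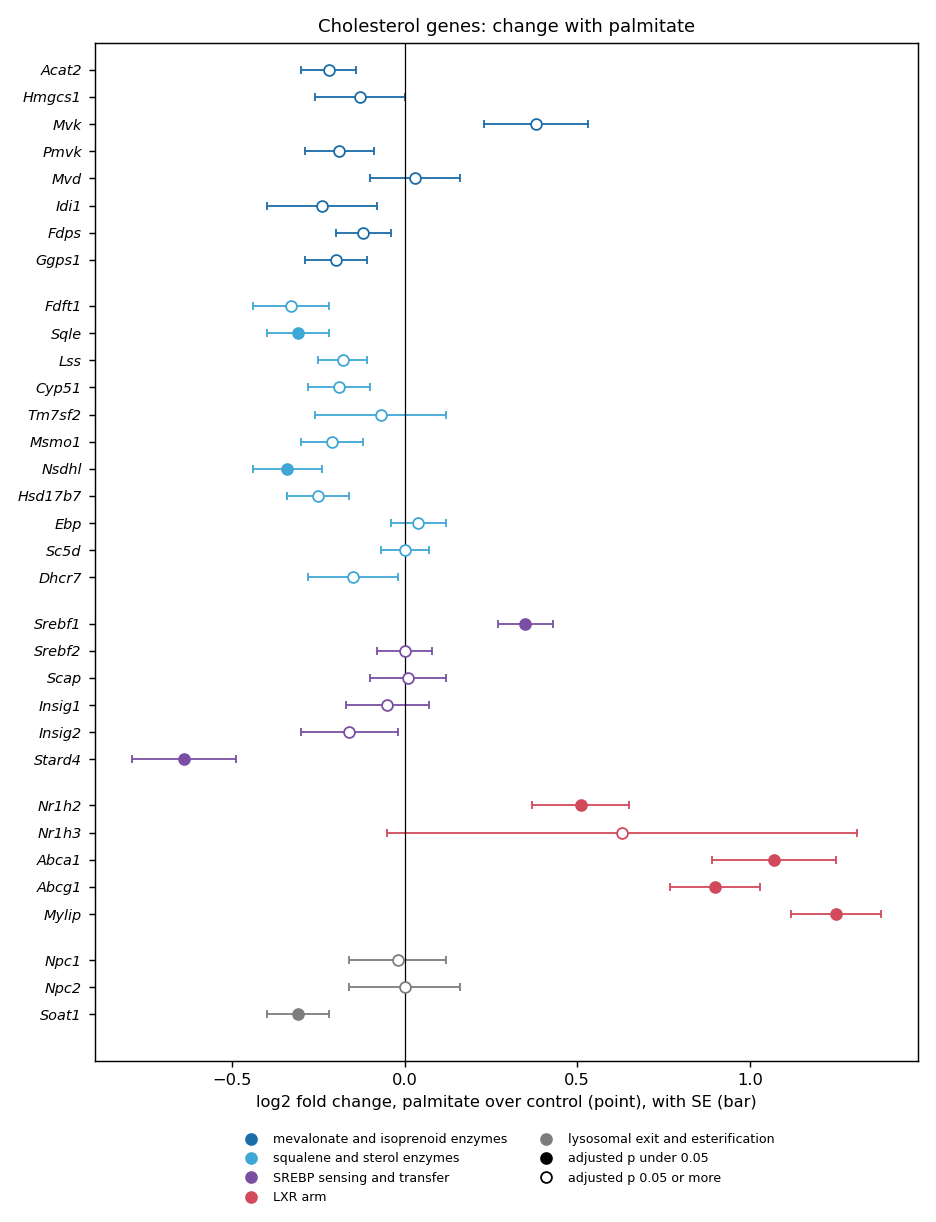
Log2 fold change, palmitate over control, of the 33 members in order of their role (points), with SE (bars). Filled points had an adjusted p under 0.05 in edgeR's quasi-likelihood test. The LXR genes Mylip (1.25), Abca1 (1.07) and Abcg1 (0.90) stand to the right, Stard4 (−0.64) to the left, and all enzymes of synthesis but Mvk (0.38) lie between −0.34 and 0.04.

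Abca1 encodes the transporter that loads cellular cholesterol and phospholipid onto lipid-poor apolipoproteins. Its level was 40.05, 25.55 and 36.33 CPM with palmitate, against 14.00, 18.32 and 16.07 CPM in control. The lowest palmitate library, number 2, still lay above the highest control library, also number 2. Abca1 rose by 1.07 ± 0.18 on the log2 scale, 2.11-fold (adjusted p = 0.00785 in edgeR's quasi-likelihood test). Abcg1, which exports cholesterol towards high-density lipoprotein, measured 45.98, 37.31 and 40.75 CPM with palmitate, against 25.87, 19 and 21.78 CPM in control. Its groups did not overlap, and it rose by 0.90 ± 0.13, 1.86-fold (adjusted p = 0.00529).

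Mylip encodes IDOL, the ubiquitin ligase that marks lipoprotein receptors of the LDL receptor family for breakdown, and so limits uptake. It stood at 12.14, 13.52 and 12.47 CPM with palmitate, against 5.57, 4.97 and 5.43 CPM in control. The groups lay far apart, each palmitate library lying above 12 CPM and each control library under 6 CPM. Mylip rose by 1.25 ± 0.13, 2.39-fold (adjusted p = 0.00248). The calls of Abca1, Abcg1 and Mylip held in all 6 fits that left out 1 library each, and under each other setting run.

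Of the receptors themselves, Nr1h2, which encodes LXR beta, measured 17.87, 18.32 and 15.99 CPM with palmitate, against 14.38, 11.87 and 10.43 CPM in control. The groups were parted by the narrow gap between palmitate library 3 and control library 1. It rose by 0.51 ± 0.14 (adjusted p = 0.0327), a call that held in 1 of 6 fits without 1 library, the one without control library 1, and was lost with transcript length offsets (adjusted p = 0.0732). Nr1h3, encoding LXR alpha, had 6, 12 and 10 counts with palmitate and 13, 1 and 9 counts in control, so its log2 fold change of 0.63 ± 0.68 (adjusted p = 0.529) was set by few reads. Its groups overlapped, and a change was not detectable at this depth.

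**Figure D2:**
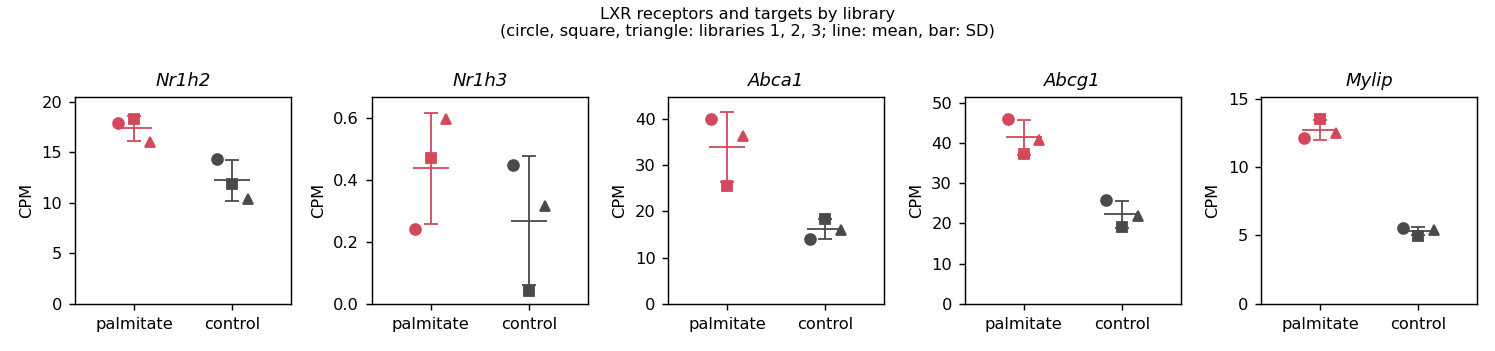
CPM of the 5 LXR arm genes in each library, palmitate left of control (points, with replicate number by shape), with the group mean (line) and SD (bar). The groups do not overlap for Nr1h2, Abca1, Abcg1 and Mylip, and they overlap for Nr1h3, which stayed at or under 0.597 CPM.

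Summed over the arm, CPM came to 116.3, 95.17 and 106.1 with palmitate and 60.26, 54.21 and 54.02 in control. Of 12 macrophage and monocyte markers 2 passed the filter and neither was called. Cd68, the more abundant of them, was at 2.69 to 3.23 CPM with palmitate and 1.48 to 3.47 CPM in control, C1qa, C1qb, C1qc and Marco were at 0 counts in each of the 6 libraries, and the list summed to 4.11 to 4.76 CPM with palmitate and 2.73 to 4.99 CPM in control. Markers of B and plasma cells moved with the LXR arm, 3 of 9 tested being higher with palmitate (Cd79a, Igha and Jchain) against 11.1% of all tested genes, and 5 with the replicate block (Ms4a1 and Ighm in addition) against 16.5%. That list summed to 276.9 to 316.1 CPM with palmitate and 174.3 to 244.1 CPM in control. The CD8 T cell list had 6 of 8 genes higher, against 11.1% of all tested genes, while Cd2 (−0.02 ± 0.12) and Lck (0.24 ± 0.10) were not called. Its sums were 1933 to 2125 CPM with palmitate and 1400 to 1658 CPM in control. The erythroid list had its 1 tested gene of 4 higher (Hbb-bs, by 1.92 ± 0.34, adjusted p = 0.00901) and summed to 4.42 to 6.64 CPM with palmitate and 1.09 to 2.03 CPM in control. In the fibroblast and endothelial list 1 of 7 genes was tested and was higher, Pecam1 (by 0.47 ± 0.13, adjusted p = 0.0339). The list summed to 47.1 to 64.2 CPM with palmitate and 35.8 to 42.1 CPM in control. Nearly all of that was Pecam1 itself, at 46.31 to 63.69 CPM with palmitate and 35.36 to 41.83 CPM in control. Kdr, the highest of the rest in any library, reached 0.403 CPM. The part of any of these lists in the LXR arm's change was not tested.

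Promoter windows of 300 bases around RefSeq gene starts (build GRCm38.p6) covered 27 of the 33 members. Fdps, Fdft1, Sqle, Stard4, Abcg1 and Npc1 had no window. The windows of the others were part of the search. All windows were searched on both strands for GGTNA and GGTCA spaced by 5 bases, a spelling of the direct repeat bound by LXR with its partner RXR. That spelling was written so as to take in the known element of Abca1, so the match in Abca1 was fixed in advance. TCACNCCAC, a spelling of the sterol regulatory element bound by SREBP, was searched for likewise. The LXR spelling occurred in 68 of 32851 windows (0.207%) and among members in 1 window each of Abca1 and Srebf1, both on the strand opposite to the gene. The sterol regulatory element occurred in 408 windows (1.24%) and among members in that of Hmgcs1 alone. These 3 windows are shown because they hold the letters through which each program is known to act, with the match in capitals and read 5′ to 3′ on the gene's strand, so that the capitals of Abca1 and Srebf1 are the reverse complement of the spelling. The Abca1 window lies at chr4:53159846-53160145 on the minus strand, the match beginning at −67 from the gene start, the Srebf1 window at chr11:60210422-60210721 on the minus strand with the match at −182, and the Hmgcs1 window at chr13:119690101-119690400 on the plus strand with the match at −137.
Abca1: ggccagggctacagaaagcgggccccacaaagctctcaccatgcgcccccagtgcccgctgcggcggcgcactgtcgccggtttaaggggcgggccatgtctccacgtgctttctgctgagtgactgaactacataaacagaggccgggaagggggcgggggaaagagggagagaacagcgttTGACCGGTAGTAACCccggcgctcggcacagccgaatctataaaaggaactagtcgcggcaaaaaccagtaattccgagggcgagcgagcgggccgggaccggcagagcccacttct
Srebf1: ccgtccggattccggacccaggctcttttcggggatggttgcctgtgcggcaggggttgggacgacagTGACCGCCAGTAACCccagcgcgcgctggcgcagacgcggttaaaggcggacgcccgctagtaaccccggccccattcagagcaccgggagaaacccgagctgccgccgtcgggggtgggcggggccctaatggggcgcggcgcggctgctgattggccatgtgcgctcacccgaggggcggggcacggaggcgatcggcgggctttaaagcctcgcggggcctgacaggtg
Hmgcs1: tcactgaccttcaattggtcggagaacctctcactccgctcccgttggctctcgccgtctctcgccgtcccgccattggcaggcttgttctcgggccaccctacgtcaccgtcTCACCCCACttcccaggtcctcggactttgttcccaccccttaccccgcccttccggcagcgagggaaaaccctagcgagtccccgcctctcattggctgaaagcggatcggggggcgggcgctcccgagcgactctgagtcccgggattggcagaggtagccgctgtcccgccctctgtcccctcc
A match of letters is a description and not evidence of binding in these cells, and the lack of one, as in the windows of Mylip and Nr1h2, says only that these letters are not in that window.

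Srebf1, which encodes SREBP-1 and is itself known as an LXR target in liver, was the one SREBP arm gene called higher. It measured 72.57, 65.29 and 70.99 CPM with palmitate, against 57.96, 51.56 and 54.40 CPM in control. The 3 palmitate libraries all lay above the 3 control libraries, by 0.35 ± 0.08 on the log2 scale (adjusted p = 0.0199), and the call held in 2 of 6 fits without 1 library. Salmon's transcript estimates place most of these reads on Srebf1-201, whose annotated start lies upstream of the window printed above. That transcript stood at 41.67, 41.21 and 50.37 CPM with palmitate, against 33.46, 31.98 and 36.07 CPM in control, a log2 fold change of 0.39 ± 0.11. Srebf1-207, whose start falls within the printed window, had 6.76, 2.77 and 1.69 CPM with palmitate and 4.14, 4.34 and 4.48 CPM in control (−0.20 ± 0.49). Neither passed the test across transcripts (adjusted p = 0.18 and 0.897), in which 0 of 39731 transcripts were called by edgeR while 6297 had an unadjusted p under 0.05, among them 22 of 112 member transcripts.

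The remaining regulators showed no called change. Srebf2, encoding the SREBP that chiefly drives cholesterol genes, held 85.84, 84.56 and 78.75 CPM with palmitate, against 85.85, 86.20 and 76.60 CPM in control (log2 fold change 0.00 ± 0.08). The matrix held 73.8% of its transcript reads. Insig1, a retention protein that is itself a well-known SREBP target, was at 260.2, 281.8 and 279.8 CPM with palmitate, against 226.5, 303.9 and 318.5 CPM in control (−0.05 ± 0.12). Its palmitate values lay inside the control range. Scap (0.01 ± 0.11) and Insig2 (−0.16 ± 0.14) also overlapped between the groups.

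Stard4, whose product carries cholesterol between membranes in the cytosol and whose gene responds to SREBP, had the largest fall among the 33. Its level was 91.0, 88.05 and 97.72 CPM with palmitate, against 110.0, 170.0 and 150.1 CPM in control. Control library 1 lay much nearer to the palmitate libraries than to the other controls. Stard4 fell by 0.64 ± 0.15 (adjusted p = 0.0237), a call that held in 1 of 6 fits without 1 library.

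The early, mevalonate part of synthesis turns acetyl-CoA into isoprenoid diphosphates and has 8 member enzymes, of which 0 were called in edgeR's quasi-likelihood test. At an unadjusted p under 0.05, Mvk was higher and Acat2 lower, against 18.6% and 19.1% of all tested genes. DESeq2, limma-voom and the replicate block also called 0, while Acat2, with 82.3% of its transcript reads in the matrix, was called lower with transcript sums (−0.29, adjusted p = 0.0212) and with length offsets (−0.30, adjusted p = 0.0287). Hmgcs1, which makes hydroxymethylglutaryl-CoA and whose window holds the sterol regulatory element, stood at 255.5, 225.2 and 246.2 CPM with palmitate, against 224.1, 317.7 and 252.3 CPM in control (−0.13 ± 0.13). Its palmitate values again lay within the control range. Fdps, farnesyl diphosphate synthase (−0.12 ± 0.08), Pmvk, phosphomevalonate kinase (−0.19 ± 0.10), and Idi1, which interconverts the 5-carbon isoprenoid units (−0.24 ± 0.16), overlapped between groups as well. Acat2, which makes acetoacetyl-CoA, was lower in all palmitate libraries, at 73.13, 69.50 and 68.49 CPM against 76.60, 90.37 and 79.74 CPM in control (−0.22 ± 0.08, adjusted p = 0.0822), and so was Ggps1, which makes geranylgeranyl diphosphate (−0.20 ± 0.09). Mevalonate kinase, Mvk, ran the other way without overlap, at 8.11, 9.32 and 9.25 CPM with palmitate against 7.77, 6.22 and 6.45 CPM in control (0.38 ± 0.15, adjusted p = 0.095). Mvd, the decarboxylase that follows, was at 0.03 ± 0.13.

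The 11 enzymes from squalene to cholesterol included 2 called lower and 0 higher, against 11.7% and 11.1% of all tested genes. At an unadjusted p under 0.05, 5 were lower and 0 higher, against 19.1% and 18.6%. Sqle, squalene epoxidase, an oxygen-using control point of the pathway, stood at 109.8, 121.3 and 114.4 CPM with palmitate, against 129.5, 159.9 and 140.0 CPM in control. The groups did not overlap, and Sqle fell by 0.31 ± 0.09 (adjusted p = 0.0391). Nsdhl, a dehydrogenase that helps strip methyl groups from the sterol ring, had 21.50, 23.94 and 19.93 CPM with palmitate, against 26.11, 30.03 and 26.46 CPM in control. It fell by 0.34 ± 0.10 (adjusted p = 0.0491), likewise without overlap, and both calls held in 1 of 6 fits without 1 library. Upper-quartile scaling left Sqle (adjusted p = 0.0635) and Nsdhl (adjusted p = 0.0894) uncalled. Nsdhl was also left uncalled by limma-voom (adjusted p = 0.0586), by a minimum mean of 5 CPM and by transcript sums with length offsets.

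With the replicate number as a block, Fdft1, squalene synthase (adjusted p = 0.0125), and Lss, lanosterol synthase (adjusted p = 0.05 to 2 digits, under the threshold), were called lower too, which brought the SREBP arm to 5 lower of 25 against 16.6% of all tested genes. In the fit without the block Fdft1 stood at −0.33 ± 0.11 (adjusted p = 0.0594) and Lss at −0.18 ± 0.07 (adjusted p = 0.078). DESeq2 also called 5 of the arm lower, against 9.52% of the 19351 genes it tested. That set took in genes of low count to which DESeq2 gave no adjusted p, such as Nr1h3. Its share therefore does not compare directly with the others. Transcript sums called 5 (13.5%), limma-voom 2 (11.3%) and upper-quartile scaling 1, Stard4 (8.72%). The rest of the late enzymes were not called with or without the block. Hsd17b7, a ketoreductase, was at −0.25 ± 0.09, Msmo1, a methylsterol oxidase, at −0.21 ± 0.09, Cyp51, lanosterol demethylase, at −0.19 ± 0.09, and Dhcr7, which completes one branch to cholesterol, at −0.15 ± 0.13. Tm7sf2, a sterol reductase (−0.07 ± 0.19), Ebp, a sterol isomerase (0.04 ± 0.08), and Sc5d, a desaturase (log2 fold change within 0.01 of 0, SE 0.07), lay near 0.

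**Figure D3:**
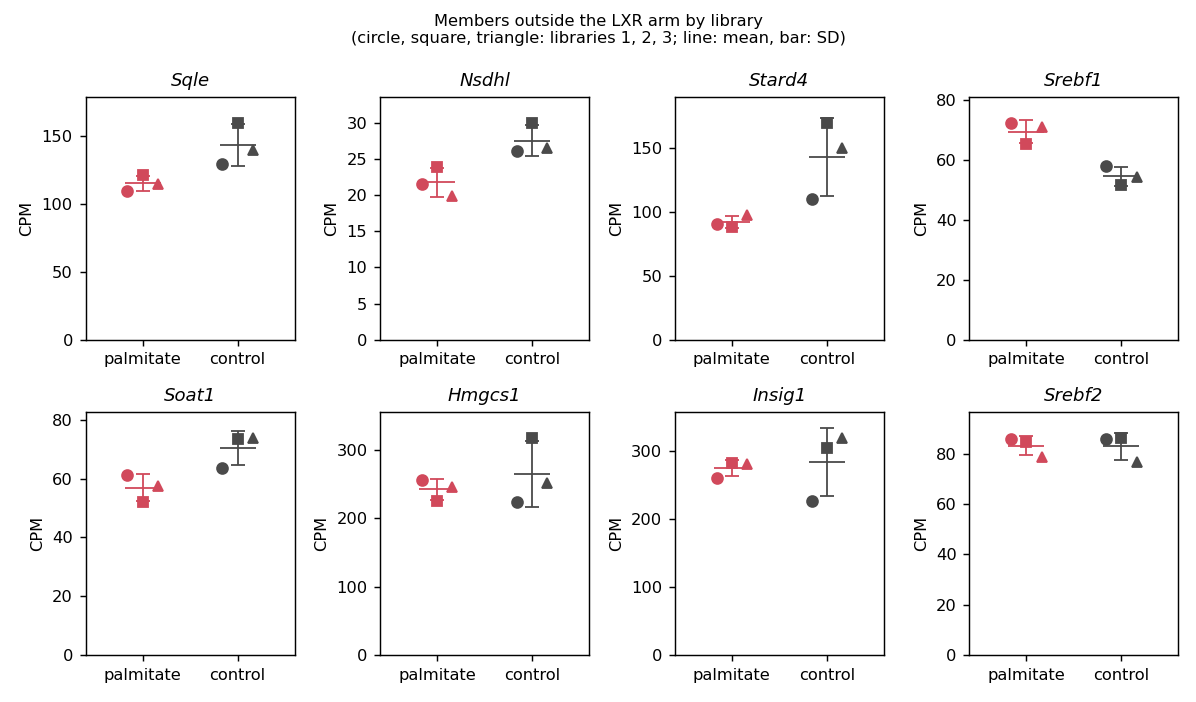
CPM of 8 members outside the LXR arm in each library, palmitate left of control (points, with replicate number by shape), with the group mean (line) and SD (bar). Sqle, Nsdhl, Stard4 and Soat1 are lower and Srebf1 higher with palmitate without overlap, while Hmgcs1, Insig1 and Srebf2 overlap; control library 1 is the lowest control for Sqle, Nsdhl, Stard4, Soat1, Hmgcs1 and Insig1.

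Across the 25 SREBP arm genes, 19 had a log2 fold change below 0, against 47.9% of all tested genes, and 7 were lower in each palmitate library than in any control library, against 21.2%. The 2 that were higher without overlap, Mvk and Srebf1, stand against 21.6%. The change in the arm was small beside the spread of its controls, since the range of the 3 control libraries exceeded the difference of the group means for 18 of 25 genes, against 55.5% of all tested genes and 1 of 5 LXR arm genes. Control library 1 was the lowest of the controls for 16 of 25 SREBP arm genes, against 38.6% of all tested genes. The arm's summed CPM was 2307, 2299 and 2321 with palmitate and 2317, 2763 and 2618 in control, so that control library 1 lay among the palmitate libraries. In the LXR arm the same library was the highest control but did not lie among the palmitate ones. The median deviation from the control mean was 1.06, 0.76 and 1.13 with palmitate and 0.23, −0.10 and 0.00 in control for the LXR arm, and −0.15, −0.14 and −0.09 with palmitate and −0.10, 0.11 and 0.00 in control for the SREBP arm, on the scale of log2(CPM + 0.1).

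**Figure D4:**
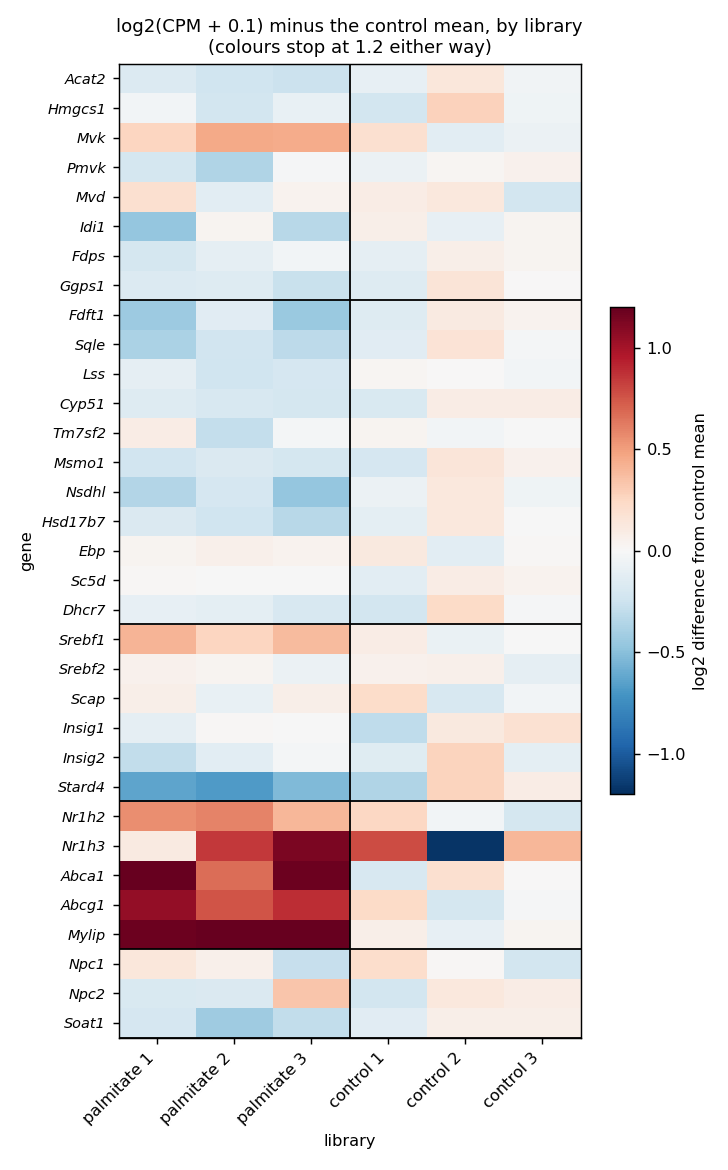
Difference of log2(CPM + 0.1) from the control mean for the 33 members (rows, by role) in each library (columns, palmitate left of control); red is higher and blue lower. The LXR rows Abca1, Abcg1 and Mylip are red in the 3 palmitate libraries, and in the SREBP rows control library 1 is bluer than control libraries 2 and 3 for genes such as Stard4, Insig1 and Hmgcs1.

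Leaving out control library 1 raised the SREBP arm's count to 9 lower (Acat2, Ggps1, Fdft1, Sqle, Cyp51, Msmo1, Nsdhl, Hsd17b7 and Stard4) and 2 higher (Mvk and Srebf1) of 25, against 14.8% and 13.0% of all tested genes in that fit. Leaving out control library 2 or 3, or palmitate library 1 or 3, gave 0 lower and 0 higher. Calls fell over all tested genes too in these fits, to 346 to 769 lower and 344 to 674 higher of 12285 to 12365. Leaving out palmitate library 2 gave 1 lower (Fdft1) with Srebf1 higher, against 905 lower and 746 higher of 12260 tested genes. The LXR arm kept Abca1, Abcg1 and Mylip in each of these 6 fits. Cell cycle genes, which rise with division, were lower with palmitate in 6 of 12, against 11.7% of all tested genes, and summed to 6006, 5276 and 5544 CPM with palmitate and 6559, 6445 and 6370 CPM in control. That sum put control library 1 with the other controls, unlike the SREBP arm's, and the part of division in the arm's change was not tested.

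Beyond the arms, the lysosomal exit genes were not called. Npc1, the membrane protein that takes cholesterol out of the lysosome, was at −0.02 ± 0.14 with 88.5% of its transcript reads in the matrix. Npc2, the soluble protein that hands cholesterol to it, was at 0.00 ± 0.16 with 48.7%, and at −0.10 when its transcripts were summed. Soat1, which esterifies cholesterol for storage, measured 61.23, 52.13 and 57.39 CPM with palmitate, against 63.74, 73.61 and 73.82 CPM in control. It fell by 0.31 ± 0.09 (adjusted p = 0.0473) without overlap, though palmitate library 1 and control library 1 lay close together, and the call held in 1 of 6 fits without 1 library. It was also lost with limma-voom (adjusted p = 0.051), upper-quartile scaling, a minimum mean of 5 CPM and length offsets.

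Compared per length, as TPM (the length-scaled transcript values that the authors deposited, summed per gene), the 4 most abundant members were SREBP arm genes, and 4 of the 5 LXR arm genes were among the 6 least abundant, with the enzymes Mvk and Tm7sf2 between them. Fdps was first at 245.5 ± 5.45 TPM with palmitate and 258.9 ± 15.3 TPM in control (SD, n = 3 each), well above Insig1, the next, at 155.4 ± 3.96 TPM with palmitate and 156.0 ± 24.1 TPM in control. Insig1 and the next gene, Hmgcs1 (131.8 ± 9.80 TPM with palmitate and 138.5 ± 19.5 TPM in control), differed by more than the spread with palmitate and by less in control. Hmgcs1, Cyp51 and Npc2 followed one another within their spread. Nr1h2 ranked 20 of 33, above 7 of the synthesis enzymes, at 20.5 ± 1.25 TPM with palmitate and 14.6 ± 2.94 TPM in control. Abcg1 ranked 28 at 9.97 ± 1.14 TPM with palmitate and 4.83 ± 0.886 TPM in control. Mylip ranked 31 at 5.50 ± 0.415 TPM with palmitate and 2.19 ± 0.138 TPM in control, and Abca1 ranked 32 at 3.74 ± 0.887 TPM with palmitate and 1.87 ± 0.299 TPM in control. Only Nr1h3 was lower, at 0.666 ± 0.484 TPM with palmitate and 0.444 ± 0.421 TPM in control. Abca1, Abcg1 and Mylip, the called members with the largest rises, were thus among the 6 least abundant of the 33 by mean TPM.

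Other genes of the same pathways were counted from 4 further lists. Of 13 LXR partners and targets outside the members, 11 were tested, with 3 higher and 0 lower, against 11.1% and 11.7% of all tested genes. Rxra, the receptor that pairs with LXR and with other nuclear receptors, stood at 19.64, 17.02 and 17.96 CPM with palmitate, against 7.36, 4.85 and 5.32 CPM in control, and rose by 1.64 ± 0.17 (adjusted p = 0.00263). Arl4c, a small GTPase gene known as an LXR target, rose by 1.14 ± 0.08 (adjusted p = 0.00113), with 136.0, 120.1 and 131.9 CPM with palmitate against 59.09, 54.17 and 63.11 CPM in control. Both were separated widely and were called in 6 of 6 fits without 1 library. Smpdl3a, a phosphodiesterase gene placed in this list, rose by 0.65 ± 0.18 (adjusted p = 0.0327, 2 of 6 fits). Whether Smpdl3a answers to LXR in mouse cells was not tested. Scd1, a fatty acid desaturase gene that both programs are known to drive, was not called, at 27.27, 55.70 and 39.02 CPM with palmitate against 44.96, 138.2 and 92.99 CPM in control (−1.18 ± 0.48), but was lower with the replicate block (adjusted p = 0.00197); it was named after its values were seen. The block gave 4 higher and 1 lower in this list, against 16.5% and 16.6% of all tested genes.

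Of 15 further enzymes of synthesis and of the prenyl branches, 1 was higher and 4 were lower, against 11.1% and 11.7% of all tested genes. Pdss1, which builds the coenzyme Q tail, fell by 0.52 ± 0.09 (adjusted p = 0.00894, 5 of 6 fits), Nus1, a subunit of the dolichol-making enzyme, by 0.43 ± 0.11 (adjusted p = 0.0242, 2 of 6 fits), and Icmt, which methylates prenylated proteins, by 0.29 ± 0.08 (adjusted p = 0.0347, 1 of 6 fits). Rabggta, a subunit of the Rab prenyl transferase, was the one called higher, by 1.55 ± 0.44 (adjusted p = 0.0464, 1 of 6 fits), and the matrix held 31.8% of its reads. Its log2 fold change was 0.44 with transcript sums (adjusted p = 0.0141) and 0.58 with length offsets (adjusted p = 0.0206), and limma-voom (adjusted p = 0.107) and the block (adjusted p = 0.0746) did not call it. Icmt was not called with upper-quartile scaling (adjusted p = 0.0778). The block gave 0 higher and 6 lower in this list, against 16.5% and 16.6% of all tested genes.

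SREBP processing, uptake and enzyme turnover outside the members gave 2 higher and 2 lower of 13 tested, shares near the 11.1% and 11.7% of all tested genes. Tmem97, the sigma-2 receptor, an SREBP-responsive gene, had 100.2, 101.0 and 105.4 CPM with palmitate, against 128.3, 139.9 and 147.0 CPM in control and fell by 0.44 ± 0.07 (adjusted p = 0.00698). It was called in 6 of 6 fits without 1 library, which held for none of the SREBP arm members. Mbtps1, a protease that cuts SREBP in the Golgi, rose by 0.32 ± 0.10 (adjusted p = 0.0465, 2 of 6 fits) with 61.6% of its reads in the matrix. That call was lost with transcript sums (0.11, adjusted p = 0.262), with length offsets (0.20, adjusted p = 0.114) and with limma-voom (adjusted p = 0.0531). The block gave 3 higher and 4 lower, against 16.5% and 16.6% of all tested genes.

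Sterol transport, ester and oxysterol genes numbered 20, of which 15 were tested, 2 higher and 1 lower, shares near or below the 11.1% and 11.7% of all tested genes. The GRAMD1 proteins move cholesterol from the plasma membrane to the endoplasmic reticulum, and a pair of them were called in opposite directions on the matrix counts. Gramd1a rose by 0.59 ± 0.15 (adjusted p = 0.0322) and Gramd1b fell by 0.46 ± 0.12 (adjusted p = 0.0323), the matrix holding 60.3% of the reads of Gramd1b. With transcript sums Gramd1b stood at −0.26 (adjusted p = 0.154), and with length offsets at −0.13 (adjusted p = 0.456) and Gramd1a at 0.33 (adjusted p = 0.208), so that both calls were lost in that fit. Abca7, a relative of Abca1, rose by 0.76 ± 0.19 (adjusted p = 0.0278), and these 3 calls each held in 2 of 6 fits without 1 library. The block gave 3 higher and 2 lower, against 16.5% and 16.6% of all tested genes.

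**Figure D5:**
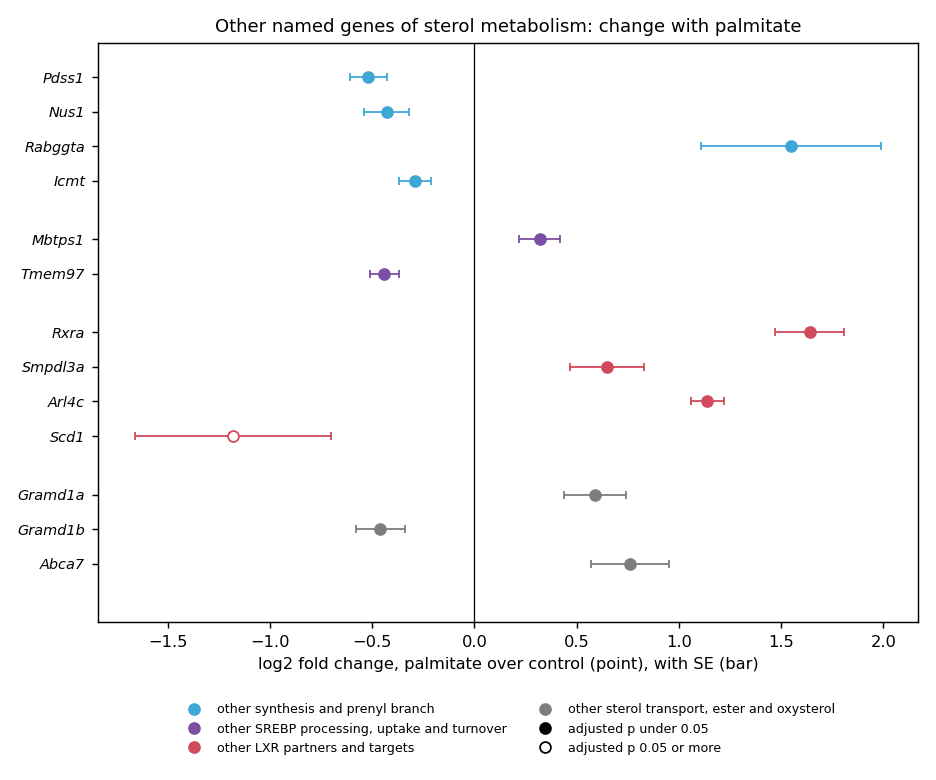
Log2 fold change, palmitate over control, of the genes from the 4 further lists that the text names (points), with SE (bars); filled points had an adjusted p under 0.05 in edgeR's quasi-likelihood test. Rxra (1.64) and Arl4c (1.14) stand to the right among the LXR partners and targets, and Tmem97 (−0.44) lies to the left of 0.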

How the data were processed

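RNA was sequenced from 3 palmitate and 3 control libraries of mouse CD8+ T cells. Per the labels' protocols, total RNA was made into libraries with a SMARTER kit. Per the submitters' processing notes, the tools named are Trim Galore 0.6.10, Salmon 1.10.0 and DESeq 1.42.0, with the build GRCm39; the sources used here give neither strand setting nor annotation. The authors deposited a matrix of whole-number gene counts and, per library, a Salmon table with expected counts and TPM per transcript; 0 sample columns were left unused. The matrix held under 90% of the transcript reads of 8 members (Acat2, Hmgcs1, Ggps1, Fdft1, Tm7sf2, Srebf2, Npc1 and Npc2), judged with the GENCODE M21 annotation, and the table linking transcripts to genes is not given.

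Matrix counts were fitted in R 4.3.3 with edgeR 4.0.16 (TMM scaling, filter on low counts, robust quasi-likelihood fit, two-sided test, Benjamini-Hochberg over all 12068 tested genes), with group as the single term. Every adjusted p in the text is from this test unless another is named. Expected counts were rounded before the transcript fit. The scripts were tested on simulated data. Other settings were RLE and upper-quartile scaling, other filters, DESeq2 1.42.0, limma 3.58.1 (voom), the replicate block, transcript sums with and without length offsets, and leaving out each library.

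The labels number the libraries 1 to 3 in each group. Same-number libraries deviated together from their group means (correlations across genes of 0.226, 0.13 and 0.152), other pairs less so (−0.185 to 0.061). The labels state no pairing, and these correlations come from the same data. The main fit and the fits without 1 library left the number out, so their p-values ignore any pairing. Block values stand where they change a call or a count. The members and lists were chosen with earlier results of these data known. All 33 members are accounted for, and from the further lists genes called at 0.05 are named, except some that are not reported here. Reads shared by near-identical transcripts are split by estimate, and without a known strand setting reads of overlapping antisense genes cannot be told apart.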

Additional observations from a re-analysis of the deposited data

How the results depend on the processing

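The medians of both arms and their difference kept their direction under each alternative: −0.23 to −0.09 for the SREBP arm, 0.79 to 1.01 for the LXR arm and 0.88 to 1.24 for the difference. The LXR arm's count of called genes was 3 or 4 throughout. Leaving out 1 library gave 690 to 3433 called genes over all genes tested, 0 to 9 SREBP arm genes lower and 0 to 2 higher; 690 was without control library 3, the count was 1651 or fewer without any library but control library 1, and those fits hold fewer samples. The SREBP arm's count of 3 lower was 1 with upper-quartile scaling, and 5 with DESeq2, with the replicate block and with transcript sums. The block added Fdft1 and Lss and changed no other member's call, and leaving out the members under 90% of reads in the matrix, chosen after seeing the data, changed neither SREBP arm median nor difference. DESeq2 gave no adjusted p for Nr1h3, whose 1 to 13 counts per library limit what can be seen of it.

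Of 493 values of single members under the alternatives, 391 kept direction and side of the threshold, 39 were weaker, 17 stronger and 46 reversed. All 46 belong to members that were not called, and the cause was not tested. Leaving out 1 library gave −0.24 to 0.02 for Hmgcs1, −0.07 to 0.10 for Mvd, −0.17 to 0.03 for Tm7sf2, −0.02 to 0.09 for Ebp, −0.07 to 0.04 for Sc5d, −0.05 to 0.04 for Srebf2, −0.08 to 0.12 for Scap, −0.19 to 0.04 for Insig1, −0.13 to 0.09 for Npc1 and −0.19 to 0.08 for Npc2. Transcript sums gave Mvd −0.05, Tm7sf2 0.10, Srebf2 −0.10, Scap 0.00 and Npc2 −0.10, and with length offsets Mvd −0.07, Ebp −0.02, Sc5d 0.01, Srebf2 −0.18, Insig2 0.11 and Npc2 −0.10. Upper-quartile scaling gave Sc5d 0.06, Insig1 0.01 and Npc1 0.03, a minimum mean of 5 CPM Sc5d 0.02 and Npc1 0.00, and RLE scaling Srebf2 0.00 and Npc2 −0.01. With no filter on low counts Srebf2 was −0.01, Scap 0.00 and Npc2 −0.01, with DESeq2 Srebf2, Scap and Npc2 were each −0.01, and with limma-voom or the replicate block Npc2 was −0.01.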
